A study of Mus musculus with 4 samples.

Results

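The genes described here are 42 mouse genes of the type I interferon system, namely interferon-stimulated genes, nucleic acid sensors and both chains of the type I interferon receptor. They were taken by name from the 43432 genes of the series' count table, through the GENCODE M21 annotation of GRCm38. All 42 were found, with Mb21d1 listed there under its newer symbol Cgas. Polyadenylated RNA came from 4 tumours under the skin of female C57BL/6 mice. All were grafts of 9464D-GD2, a neuroblastoma line of mouse origin with the ganglioside GD2 on its cells, and 9464D arose in mice transgenic for human MYCN under a tyrosine hydroxylase promoter. In the sEV group, 2 mice received 25 µg dinutuximab together with 20 µg of small extracellular vesicles (sEVs) released by 9464D-GD2 cells. In the dinutuximab group, 2 mice received 25 µg dinutuximab alone. Dinutuximab is a therapeutic antibody against GD2, and both groups had 5 treatments at 2 doses per week, so every tumour was under the antibody. By its title the series concerns resistance to this therapy induced by sEVs, and the groups differ in the added sEVs. The labels give the tumours of each group the numbers 3 and 4, with no word on their meaning, and a pair of values is given for replicate 3 and then replicate 4.

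Type I interferons are secreted proteins, chiefly interferon beta and the interferon alphas, that nearly all cells can make when nucleic acid is sensed in the wrong place. RIG-I (Ddx58) and MDA5 (Ifih1) sense RNA in the cytosol, cGAS (Mb21d1) senses DNA there and signals through STING (Tmem173), and both routes lead to transcription of interferon genes. Interferon binds a receptor of the chains IFNAR1 and IFNAR2, and the factor ISGF3, which holds STAT2 and IRF9, then binds the interferon-stimulated response element in the promoters of its targets. In tumours this programme is known to be run by cancer cells and by infiltrating immune cells alike. In bulk RNA such as this, fewer cells of a type and less RNA per cell cannot be told apart.

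The response element was looked for in the RefSeq promoters of GRCm38.p6, each spanning 250 bases before a transcript start and 50 after it. Of the 42 genes, 31 had a promoter in the table. Its core was searched as a pair of TTTC letters with any 2 bases between them, and on the other strand as a pair of GAAA letters spaced alike, and overlapping matches were kept. It was present for 16 of the 31 genes (51.6%), against 3.99% of all 27025 genes in the table. The gamma-activated site TTCNNNGAA, which reads the same on both strands and is known from interferon gamma signalling, was present for 8 of the 31 (25.8%) and for 9.55% of all genes. A match describes letters in these windows and is not a measured binding site. The 250 bases before the start are shown for Isg15 and for 3 Ifit genes, which are among the genes that differed most between tumours of a group, with matches to the core in capitals.
Isg15 (chr4:156200819-156201068, minus strand): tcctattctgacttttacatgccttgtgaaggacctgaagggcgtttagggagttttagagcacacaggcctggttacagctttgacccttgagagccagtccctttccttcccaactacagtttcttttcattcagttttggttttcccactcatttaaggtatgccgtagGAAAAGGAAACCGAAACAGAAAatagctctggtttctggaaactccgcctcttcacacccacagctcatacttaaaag
Ifit1 (chr19:34640639-34640888, plus strand): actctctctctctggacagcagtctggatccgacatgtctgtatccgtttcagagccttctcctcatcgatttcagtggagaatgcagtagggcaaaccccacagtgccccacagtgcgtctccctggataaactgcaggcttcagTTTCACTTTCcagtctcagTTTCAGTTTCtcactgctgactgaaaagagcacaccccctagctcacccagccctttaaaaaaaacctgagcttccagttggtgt
Ifit3 (chr19:34583279-34583528, plus strand): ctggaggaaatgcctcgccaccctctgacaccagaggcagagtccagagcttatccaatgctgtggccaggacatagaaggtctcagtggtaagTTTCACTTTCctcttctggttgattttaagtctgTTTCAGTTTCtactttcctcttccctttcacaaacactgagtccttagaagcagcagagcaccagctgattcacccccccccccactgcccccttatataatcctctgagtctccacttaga
Ifit3b (chr19:34607707-34607956, plus strand): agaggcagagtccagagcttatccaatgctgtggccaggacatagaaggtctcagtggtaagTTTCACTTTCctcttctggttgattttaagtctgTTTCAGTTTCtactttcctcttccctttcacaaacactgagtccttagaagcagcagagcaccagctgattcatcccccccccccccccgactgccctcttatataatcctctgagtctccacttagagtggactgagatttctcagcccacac

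The Isg15 promoter holds 3 overlapping matches in a run that begins 78 bases before the start. Ifit1, Ifit3 and Ifit3b each hold 2 separate matches, with the same letters in all 3 genes. The Ifit3 and Ifit3b stretches were 86.2% identical over 218 aligned bases. All stretches shown come from genes with the core. The core was not found for Epsti1 and Samd9l, also of low p between the groups, nor for Ifi44, Oasl2, Xaf1 and Ifit2. Mx1, Usp18 and Rtp4 had no RefSeq promoter to search. For comparison, 40-base stretches around the matches are shown for 7 further genes. They are the effectors Rsad2, Oas3 and Oas1a, 3 genes of low p between the groups (Trim30a, Slfn8 and Stat2), and Bst2. Bst2 had the highest level per kilobase.
Rsad2 (chr12:26456548-26456587, minus strand): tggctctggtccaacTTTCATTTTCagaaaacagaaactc
Oas3 (chr5:120777710-120777749, minus strand): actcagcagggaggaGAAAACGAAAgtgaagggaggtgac
Oas1a (chr5:120907526-120907565, minus strand): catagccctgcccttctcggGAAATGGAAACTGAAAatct
Trim30a (chr7:104465205-104465244, minus strand): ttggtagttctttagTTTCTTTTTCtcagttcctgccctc
Slfn8 (chr11:83020834-83020873, minus strand): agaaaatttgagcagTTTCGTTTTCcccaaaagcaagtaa
Stat2 (chr10:128270261-128270300, plus strand): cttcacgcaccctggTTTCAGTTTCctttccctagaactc
Bst2 (chr8:71537575-71537614, minus strand): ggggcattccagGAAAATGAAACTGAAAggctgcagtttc

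The difference between tumours of a group was set beside the core. The median absolute log2 difference between the sEV tumours was 0.260 for the 16 genes with the core, 0.288 for the 15 genes without it and 0.516 for the 11 genes with no entry. Between the dinutuximab tumours it was 0.559 with the core, 0.390 without it and 0.453 with no entry. The differences between these medians were not tested.

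The libraries held between 24452699 and 28187573 counts, and 13823 genes, all 42 interferon genes among them, passed the filter on low counts. CPM here stands for counts scaled to a library size adjusted with TMM factors of between 0.976 and 1.02. Over all genes sEV replicate 3 stood apart, at -35.2 on the first principal component (42.4% of variance), where the other 3 libraries had scores between 5.96 and 16.3. Of 15 neuroblastoma markers, 5 had 0 counts in every library, Dbh, Elavl4 and Insm1 among them, and 6 passed the filter, Hand2, Isl1, Gata2 and Mycn among these. Of the 6, 4 had a positive log2 fold change, the median was 0.02, and the 15 markers summed to 406 and 374 CPM in the sEV tumours and 351 and 384 CPM in the dinutuximab tumours.

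Per kilobase of exon, the 42 genes spanned a wide range of levels. Bst2, which encodes the tethering protein tetherin, averaged 90.2 CPM per kilobase over the 4 tumours, and Tmem173 averaged 81.2. Next came Ifi27 at 20.2, Ifnar1 at 13.2, Ifi35 at 13.0 and Ifnar2 at 10.1 CPM per kilobase. The top pair overlapped between tumours, since Bst2 lay between 78.8 and 103 and Tmem173 between 74.9 and 94.5 CPM per kilobase. At the low end stood Oas3 (0.137), Ifi44 (0.142), Mx2 (0.161), Oas2 (0.241), Slfn5 (0.247) and Oas1g (0.264 CPM per kilobase). Counts ranged from 5 for Ifit3b in dinutuximab replicate 4 to 6644 for Tmem173 in dinutuximab replicate 3, and 3 of the genes had fewer than 10 counts in some library. The plot of levels shows each gene in each tumour.

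**Figure D1:**
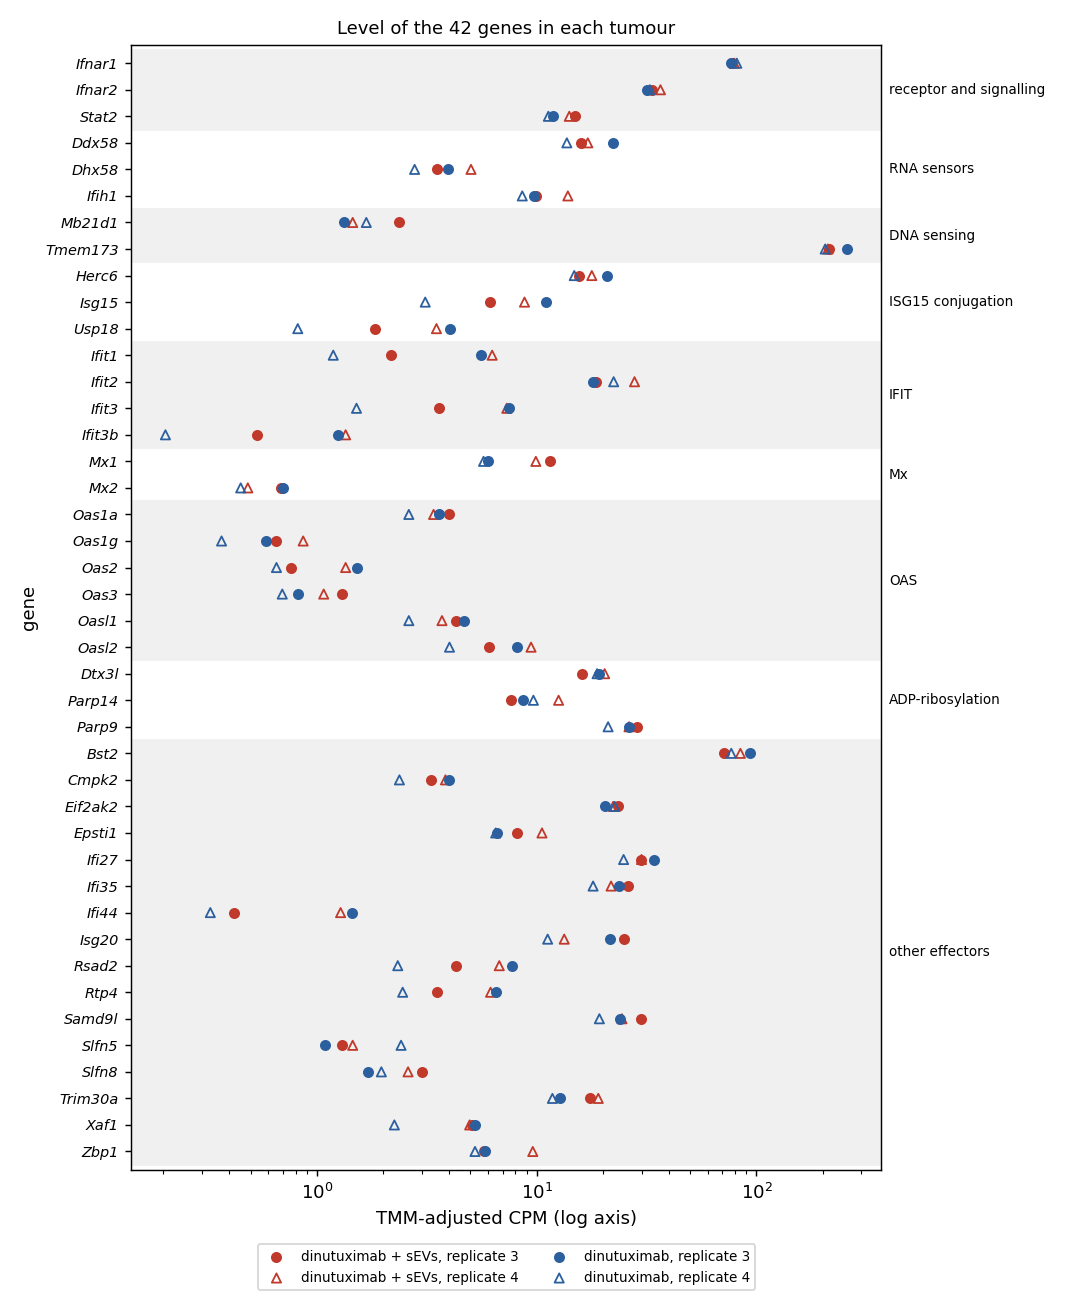
TMM-adjusted CPM (log axis) of the 42 genes, grouped by role, in the 2 sEV tumours (red) and the 2 dinutuximab tumours (blue), with filled circles for replicate 3 and open triangles for replicate 4. For Isg15, Usp18, Ifit1, Ifit3 and Ifit3b the open blue triangle lies far left of the filled blue circle, at 3.11 CPM against 11.0 CPM for Isg15.

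The median spread between tumours of 1 group was larger over the interferon genes than over all genes tested, above all in the dinutuximab group. The genes compared were not matched for level, and counting error is larger in genes of few counts. The median absolute log2 difference between the sEV tumours was 0.315 over the 42 genes and 0.184 over all genes tested. Between the dinutuximab tumours it was 0.453 over the 42 genes and 0.211 over all genes tested. A difference of 2-fold or more between the sEV tumours was seen in 4 of the 42 genes, where 5.38% of all genes had one. Between the dinutuximab tumours it was seen in 12 of the 42, where 4.30% of all genes had one. In 30 of the 42 genes the tumours lay within 2-fold of each other in both groups. Counting error alone was judged from exact Poisson 95% intervals, which did not overlap between the sEV tumours in 19 of the 42 genes (36.9% of all genes). Between the dinutuximab tumours they did not overlap in 24 of the 42 (39.6% of all genes).

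The tumour that stood lowest was dinutuximab replicate 4. Of the 42 genes, 32 were lowest of all 4 tumours in dinutuximab replicate 4, which was the lowest tumour for 26.5% of all genes tested. In the same tumour 2 of the 42 were highest (27.0% of all genes). None of the 42 was lowest in sEV replicate 4 (18.5% of all genes). In 22 of the 42 genes sEV replicate 4 lay above sEV replicate 3 and dinutuximab replicate 3 above dinutuximab replicate 4, a pattern seen in 21.9% of all genes. Summed over the 42 genes, the level was 759 and 804 CPM in the sEV tumours and 835 and 679 CPM in the dinutuximab tumours. These shares describe the 4 tumours and were not tested.

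**Figure D2:**
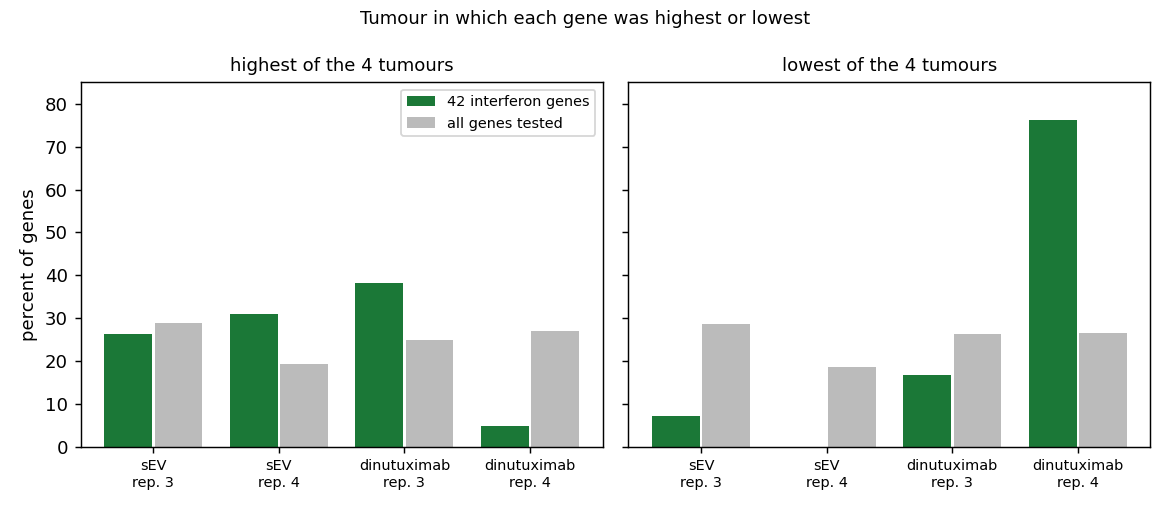
Share of genes (percent) whose highest value (left panel) or lowest value (right panel) fell in each tumour, for the 42 interferon genes (green) and all 13823 genes tested (grey). Dinutuximab replicate 4 held the lowest value of 32 of the 42 genes and of 26.5% of all genes.

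Isg15 and Usp18 differed widely within the dinutuximab group. Isg15 (chr4:156199424-156200818 on GRCm38), which encodes a ubiquitin-like protein that is conjugated to other proteins and secreted, had 6.11 and 8.80 CPM in the sEV tumours, against 11.0 and 3.11 CPM in the dinutuximab tumours. Usp18, whose product removes ISG15 and also damps receptor signalling, had 1.83 and 3.50 CPM in the sEV tumours, against 4.01 and 0.819 CPM in the dinutuximab tumours. In both genes dinutuximab replicate 3 was the highest tumour and dinutuximab replicate 4 the lowest, with the sEV tumours between them. Isg15 was 1.44-fold higher in sEV replicate 4 than in sEV replicate 3, and 3.54-fold higher in dinutuximab replicate 3 than in dinutuximab replicate 4. For Usp18 these ratios were 1.91 and 4.90. Herc6, the ligase that attaches ISG15 in mice, varied less, with 15.6 and 17.8 CPM in the sEV tumours and 20.8 and 14.8 CPM in the dinutuximab tumours.

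The Ifit genes, whose products bind viral RNA, lie side by side on chromosome 19. Ifit1 (chr19:34640871-34650009) had 2.18 and 6.27 CPM in the sEV tumours, against 5.57 and 1.19 CPM in the dinutuximab tumours. Ifit3 (chr19:34583531-34588731) had 3.59 and 7.31 CPM in the sEV tumours, against 7.52 and 1.52 CPM in the dinutuximab tumours. In both, replicate 4 was the higher of the sEV tumours and replicate 3 the higher of the dinutuximab tumours, and the lower tumour of each group lay below the higher tumour of the other. The ratio between the dinutuximab tumours was 4.69 for Ifit1, 4.96 for Ifit3 and 6.09 for Ifit3b, the last at between 5 and 39 counts. Ifit3 and Ifit3b share long stretches, so that the split of their counts is uncertain. Of the 50-base words in Ifit3 transcripts, 51.2% also occur in another gene, mostly Ifit3b. Ifit2 (chr19:34550694-34576419) did not follow its neighbours, with 18.6 and 27.9 CPM in the sEV tumours and 18.1 and 22.4 CPM in the dinutuximab tumours. Replicate 4 was the higher tumour of both groups for Ifit2.

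Several other effectors put the dinutuximab tumours at both ends. Rsad2, which encodes the antiviral enzyme viperin, had 4.32 and 6.76 CPM in the sEV tumours, against 7.76 and 2.33 CPM in the dinutuximab tumours. Ifi44, a gene of little known function, had 0.420 and 1.28 CPM in the sEV tumours, against 1.44 and 0.328 CPM in the dinutuximab tumours, from between 8 and 37 counts. Rtp4, which encodes a receptor transporter protein, had 3.51 and 6.17 CPM in the sEV tumours, against 6.55 and 2.46 CPM in the dinutuximab tumours. In these 3 genes dinutuximab replicate 3 was the highest tumour and dinutuximab replicate 4 the lowest. Across the 42 genes, 11 were at least 2-fold higher in dinutuximab replicate 3 than in dinutuximab replicate 4: Isg15, Usp18, Ifit1, Ifit3, Ifit3b, Ifi44, Rsad2, Rtp4, Oas2, Oasl2 and Xaf1. Of these 11, 10 were also higher in sEV replicate 4 than in sEV replicate 3, and Xaf1, which encodes an apoptosis factor, had 5.08 and 4.96 CPM in the sEV tumours and 5.22 and 2.25 CPM in the dinutuximab tumours. Slfn5, a Schlafen family gene, was the 1 gene with a 2-fold difference the other way, at 1.09 and 2.42 CPM in the dinutuximab tumours.

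**Figure D3:**
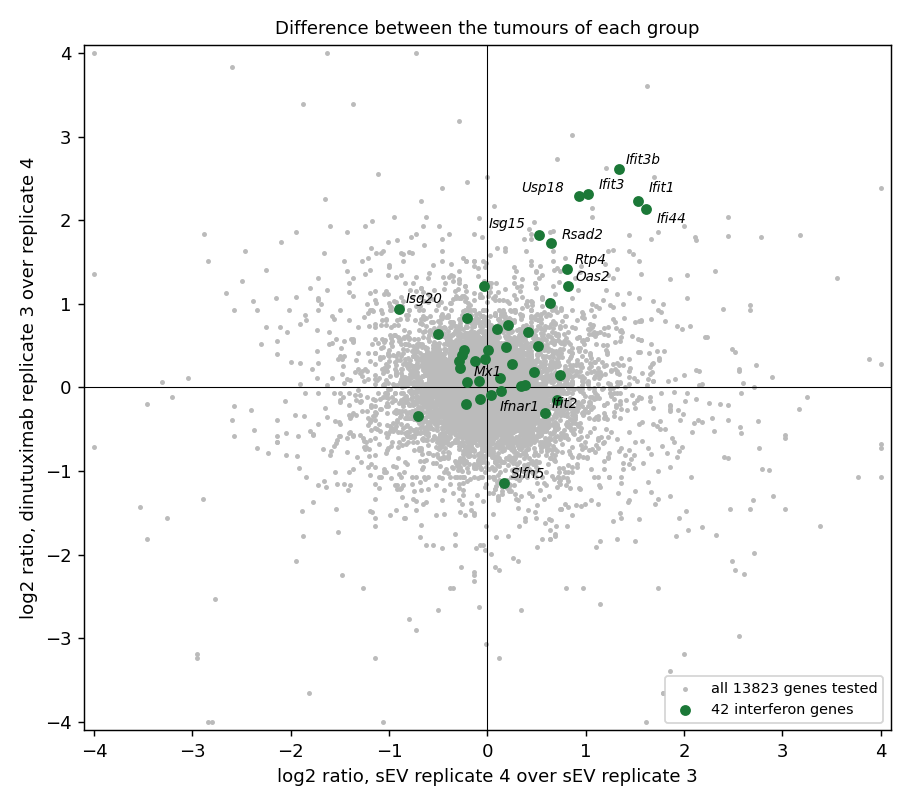
Log2 ratio between the tumours of each group, sEV replicate 4 over sEV replicate 3 (horizontal) and dinutuximab replicate 3 over dinutuximab replicate 4 (vertical), for all 13823 genes tested (grey) and the 42 interferon genes (green), with ratios beyond 4 drawn at 4. Of the 42 genes, 22 lie in the upper right quadrant, where 21.9% of all genes lie, and Ifit3b, Ifit1, Ifit3, Ifi44 and Usp18 lie farthest out.

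The oligoadenylate synthetases make a second messenger when they bind double-stranded RNA. Oas2 had 0.764 and 1.35 CPM in the sEV tumours and 1.52 and 0.655 CPM in the dinutuximab tumours, and Oasl2, a related gene, had 6.07 and 9.43 CPM in the sEV tumours and 8.11 and 4.01 CPM in the dinutuximab tumours. Both were at least 2-fold higher in dinutuximab replicate 3 than in dinutuximab replicate 4. All 6 Oas and Oasl genes were higher in dinutuximab replicate 3 than in dinutuximab replicate 4, and 3 of the 6 were higher in sEV replicate 4 than in sEV replicate 3. Oas3 had 1.30 and 1.07 CPM in the sEV tumours, against 0.818 and 0.696 CPM in the dinutuximab tumours, so that the groups did not overlap. Oas1a and Oas1g share long stretches (57.6% of the 50-base words in Oas1a transcripts occur in another gene, mostly Oas1g), and their separate counts are uncertain. Oas1a had 4.01 and 3.40 CPM in the sEV tumours and 3.59 and 2.62 CPM in the dinutuximab tumours, and Oas1g had 0.649 and 0.866 CPM in the sEV tumours, against 0.585 and 0.369 CPM in the dinutuximab tumours, the groups overlapping in Oas1a and not in Oas1g.

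Cells read double-stranded RNA and DNA through the sensors, and none of the 5 sensing genes differed 2-fold between tumours of a group. Ddx58 had 16.0 and 17.1 CPM in the sEV tumours and 22.3 and 13.7 CPM in the dinutuximab tumours, a log2 fold change of -0.12 ± 0.23 (SE). Ifih1 had 9.97 and 13.9 CPM in the sEV tumours, against 9.74 and 8.60 CPM in the dinutuximab tumours (0.38 ± 0.22), and its sEV tumours were both above its dinutuximab tumours, the nearest pair by a small margin. Dhx58, which encodes the regulator LGP2, had 3.51 and 5.03 CPM in the sEV tumours and 3.94 and 2.78 CPM in the dinutuximab tumours (0.35 ± 0.31). None of the 3 passed the edgeR quasi-likelihood test (adjusted p = 0.961 for Ddx58, 0.908 for Ifih1 and 0.918 for Dhx58). Of the DNA route, Mb21d1 was low, with 62 and 42 counts in the sEV tumours and 34 and 41 counts in the dinutuximab tumours (0.34 ± 0.38, adjusted p = 0.944). Tmem173 was abundant, with 214 and 211 CPM in the sEV tumours and 259 and 205 CPM in the dinutuximab tumours (-0.13 ± 0.15, adjusted p = 0.945). Zbp1, which senses Z-form nucleic acid and can trigger cell death, had 5.77 and 9.60 CPM in the sEV tumours and 5.81 and 5.24 CPM in the dinutuximab tumours, and sEV replicate 4 stood above the other 3 tumours.

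The receptor genes were among the steadiest of the 42. Ifnar1 had 77.2 and 79.2 CPM in the sEV tumours and 76.5 and 81.4 CPM in the dinutuximab tumours, a log2 fold change of -0.01 ± 0.13 (SE, edgeR adjusted p = 0.994). Ifnar2 had 33.3 and 36.6 CPM in the sEV tumours and 31.8 and 32.7 CPM in the dinutuximab tumours (0.11 ± 0.14, adjusted p = 0.947), and its groups did not overlap. Neither varied by more than 1.10-fold between tumours of a group. Stat2, the ISGF3 subunit, had 14.9 and 14.1 CPM in the sEV tumours, against 11.9 and 11.3 CPM in the dinutuximab tumours and likewise varied little within groups.

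Interferon transcripts themselves were close to the limit of detection. Of 21 interferon genes looked up, 18 had 0 counts in all 4 libraries. The exact Poisson 95% interval of a count of 0 reaches 3.69 counts. A floor of 3 counts per library equals between 0.104 and 0.123 CPM. Ifnb1, the interferon beta gene, had 0 and 5 counts in the sEV tumours and 6 and 0 counts in the dinutuximab tumours. Ifnb1 was thus detected in sEV replicate 4 and dinutuximab replicate 3. These were the higher tumours of their groups for 22 of the 42 genes (21.9% of all genes), Isg15, Usp18, Ifit1 and Ifit3 among them. The exact Poisson 95% interval was 1.62 to 11.7 for 5 counts and 2.20 to 13.1 for 6 counts. Both intervals reach below the upper limit of 3.69 for a count of 0, and both cover counting error only. Ifng, the type II interferon gene, had 4 and 10 counts in the sEV tumours and 5 and 3 counts in the dinutuximab tumours. The interferon genes did not pass the filter on low counts, and their part in the levels of the other genes was not tested.

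Between the groups, none of the 42 genes passed the test. With Benjamini-Hochberg adjustment over all genes, the edgeR quasi-likelihood test called 0 of the 42, and the background was 0 of 13823 (0.00%). DESeq2 called 0 of the 42 (0.398% of all genes) and limma-voom 0 (0.00%). The smallest adjusted p among the 42 was 0.535, for Mx1. At an unadjusted p under 0.05, 2 of the 42 were higher with sEVs (2.47% of all genes were) and 0 lower (3.10% of all genes). Both tumours of the sEV group lay above both of the dinutuximab group in 11 of the 42 genes (18.1% of all genes), and below them in 0 (16.5%). The 11 genes were Mx1, Oas1g, Oas3, Ifih1, Stat2, Ifnar2, Trim30a, Parp9, Epsti1, Samd9l and Slfn8. The median log2 fold change was 0.20 over the 42 genes, with an SD of 0.25 among them, and 0.00146 over all genes, from 2 tumours in each group. Of the 42, 33 had a positive log2 fold change, against 50.3% of all genes. In 35 of the 42 genes the log2 difference within at least 1 group exceeded the log2 fold change between groups, as it did in 77.9% of all genes.

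The size of that median depended on single tumours. Without dinutuximab replicate 4 the median over the 42 genes was -0.02 and 21 of the 42 were positive (52.0% of all genes). Without dinutuximab replicate 3 the median was 0.52 and 39 were positive (52.0% of all genes). It was 0.30 with 33 positive without sEV replicate 3 (47.1% of all genes), and 0.05 with 24 positive without sEV replicate 4 (48.9% of all genes). At an unadjusted p under 0.05, 9 of the 42 were higher with sEVs without sEV replicate 3 (1.93% of all genes) and 4 without sEV replicate 4 (4.80%). There were 9 without dinutuximab replicate 3 (1.67%) and 2 without dinutuximab replicate 4 (2.64%), and none of the 42 was lower at that threshold in these 4 fits. In each fit 0 of the 42 were called by edgeR, where 0.930% of all genes were called without sEV replicate 3, 2.23% without sEV replicate 4 and 0.00% without either dinutuximab library.

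The genes of lowest p were not those that varied most between tumours of a group, since the test sets the group difference against that spread. Mx1 (chr16:97447035-97462907), which encodes a GTPase against influenza viruses and is known to be defective in C57BL/6 mice, averaged 10.7 ± 1.09 CPM in the sEV tumours and 5.87 ± 0.190 CPM in the dinutuximab tumours (SD, n = 2 each). Its counts were 300 and 286 with sEVs and 154 and 140 with dinutuximab alone, and the log2 fold change was 0.86 ± 0.21 (SE, unadjusted p = 0.00317, edgeR adjusted p = 0.535). Trim30a, which encodes a negative regulator of inflammatory signalling, averaged 18.2 ± 1.16 CPM in the sEV tumours and 12.2 ± 0.645 CPM in the dinutuximab tumours (SD, n = 2 each), a log2 fold change of 0.57 ± 0.17 (SE, unadjusted p = 0.00873, edgeR adjusted p = 0.692). In both genes every sEV tumour lay above every dinutuximab tumour, which by itself keeps the direction when any 1 library is left out. The log2 fold changes then ranged from 0.75 to 0.97 for Mx1 and from 0.51 to 0.63 for Trim30a. Without any filter on low counts the edgeR adjusted p of Mx1 was 0.0485, in a fit that called 262 of 22003 genes (1.19%). Its near relative Mx2, annotated as a polymorphic pseudogene, had 18 and 14 counts with sEVs and 18 and 11 counts with dinutuximab alone.

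The next 6 genes by p had an unadjusted edgeR p of at least 0.0541. Epsti1, a gene first found through epithelial and stromal cell contact, had 8.10 and 10.6 CPM in the sEV tumours, against 6.63 and 6.51 CPM in the dinutuximab tumours (0.51 ± 0.23). Slfn8, of the Schlafen family, had 3.02 and 2.60 CPM in the sEV tumours, against 1.71 and 1.97 CPM in the dinutuximab tumours (0.61 ± 0.31), and 14.6% of the 50-base words in its transcripts occur in another gene, mostly Slfn9. Stat2 had a log2 fold change of 0.32 ± 0.17 and Zbp1 one of 0.48 ± 0.29. Samd9l, whose product restrains growth and viruses, had 29.8 and 24.4 CPM in the sEV tumours, against 24.0 and 19.3 CPM in the dinutuximab tumours (0.33 ± 0.18). In Epsti1, Slfn8, Stat2 and Samd9l, as in Ifih1, the groups did not overlap, and in Zbp1 they did. The edgeR adjusted p of these 6 genes lay between 0.885 and 0.908. The SE grows with the spread between tumours of a group. It was thus large for genes with a wide spread, such as Isg15 (0.08 ± 0.49, adjusted p = 0.993) and Usp18 (0.14 ± 0.63, adjusted p = 0.988). Among these genes Ifit3b, Ifit1 and Ifit3 had log2 fold changes of 0.38, 0.32 and 0.27, and Ifi44 had -0.05.

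**Figure D4:**
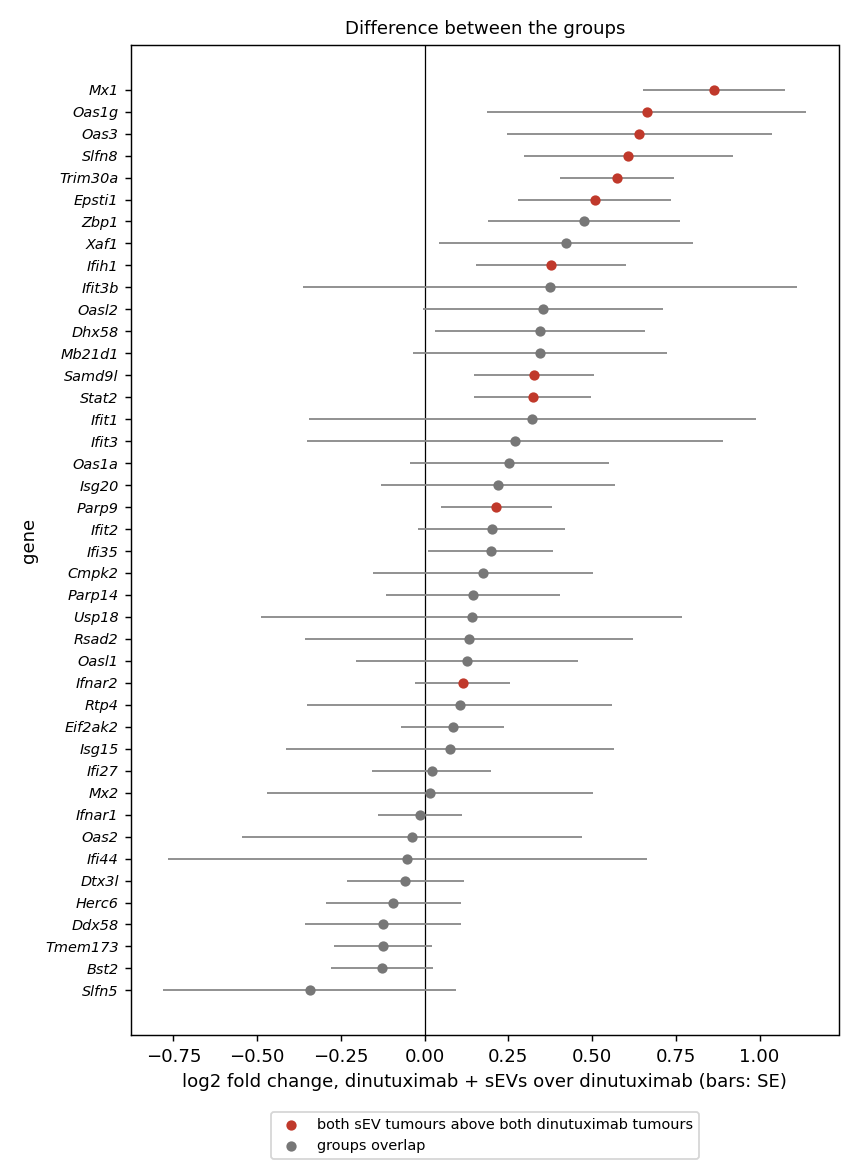
Log2 fold change of the sEV group over the dinutuximab group for the 42 genes (points, with SE derived from the edgeR F statistic as bars), ordered by size, with red points where both sEV tumours lay above both dinutuximab tumours. Mx1 lies highest at 0.86 ± 0.21 and Slfn5 lowest at -0.34 ± 0.44, and the bars are widest for Ifit3b, Ifi44, Ifit1, Usp18 and Ifit3.

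Of the remaining effectors, several had similar levels in all 4 tumours. Eif2ak2, which encodes the RNA-activated kinase PKR, had 23.5 and 22.3 CPM in the sEV tumours and 20.5 and 22.6 CPM in the dinutuximab tumours, and Bst2 had 71.2 and 84.5 CPM in the sEV tumours and 93.3 and 76.8 CPM in the dinutuximab tumours. Ifi27 and Ifi35, interferon-induced genes, had log2 fold changes of 0.02 and 0.20, and Cmpk2, a nucleotide kinase gene next to Rsad2, 0.17, each with overlapping groups. Oasl1 had 4.28 and 3.71 CPM in the sEV tumours and 4.68 and 2.62 CPM in the dinutuximab tumours, and dinutuximab replicate 3 was its highest tumour and dinutuximab replicate 4 its lowest. Isg20, which encodes an exonuclease, had 24.9 and 13.3 CPM in the sEV tumours and 21.6 and 11.2 CPM in the dinutuximab tumours, with replicate 3 the higher tumour of both groups. Parp9 and Dtx3l, whose products form a complex that modifies proteins by ADP-ribosylation and ubiquitination, had log2 fold changes of 0.21 and -0.06, and Parp14, a related enzyme gene, 0.14. Parp9 had 28.6 and 26.3 CPM in the sEV tumours, against 26.2 and 21.1 CPM in the dinutuximab tumours, with sEV replicate 4 and dinutuximab replicate 3 nearly level. Parp9 and Dtx3l lie head to head and share 458 exonic bases on opposite strands, where the strand setting of the counting is not given in the sources used here. Over the 16 genes grouped as other effectors, the log2 fold change was positive in 13 (50.3% of all genes), and both sEV tumours lay above both dinutuximab tumours in 4 (18.1% of all genes).

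Markers of cell types, and genes of the immediate early and heat shock responses, differed between the same tumours. The summed level of 14 macrophage markers was 3545 and 3527 CPM in the sEV tumours and 2758 and 3153 CPM in the dinutuximab tumours, and 12 of the 14 had a positive log2 fold change. That of 7 monocyte markers was 212 and 192 CPM in the sEV tumours and 131 and 147 CPM in the dinutuximab tumours. For 7 red blood cell markers it was 71.1 and 43.6 CPM in the sEV tumours and 35.2 and 21.5 CPM in the dinutuximab tumours. The sum for 14 immediate early and heat shock genes was 822 and 866 CPM in the sEV tumours. In the dinutuximab tumours that sum was 1028 and 948 CPM. The macrophage and monocyte sums were thus higher in both sEV tumours, and dinutuximab replicate 3 had the lowest sum of both lists. Most of the monocyte sum was Vcan, with 189 and 169 CPM in the sEV tumours and 119 and 134 CPM in the dinutuximab tumours. Gene by gene, 4 of the 7 monocyte markers and 3 of the 14 macrophage markers were higher in dinutuximab replicate 3 than in dinutuximab replicate 4. T cell markers were scarce: 8 markers summed to 2.44 and 9.64 CPM in the sEV tumours and 4.17 and 6.10 CPM in the dinutuximab tumours. For 8 NK cell markers the sum was 5.65 and 9.50 CPM in the sEV tumours and 6.35 and 7.90 CPM in the dinutuximab tumours, so that sEV replicate 4 was the highest tumour of both lists. Of 10 markers of plasmacytoid dendritic cells, a cell type known for making interferon alpha, Siglech and Ccr9 had 0 counts in every library and 2 passed the filter. The list summed to 15.9 and 21.6 CPM in the sEV tumours and 16.3 and 27.1 CPM in the dinutuximab tumours. Most of that sum was Irf8, a factor that other immune cells also express, with 14.7 and 19.5 CPM in the sEV tumours and 14.8 and 23.6 CPM in the dinutuximab tumours, so that it is no measure of those cells. Of 10 neutrophil markers, 3 passed the filter, and Ly6g, Ngp and Elane had 0 counts in every library. The neutrophil list summed to 3.82 and 6.17 CPM in the sEV tumours and 3.16 and 5.90 CPM in the dinutuximab tumours, most of it Csf3r, with 2.67 and 5.03 CPM in the sEV tumours and 2.77 and 5.36 CPM in the dinutuximab tumours. S100a8 and S100a9, both below 1 CPM in every tumour, were higher in both sEV tumours than in both dinutuximab tumours (log2 fold changes 1.82 and 1.42, edgeR adjusted p = 0.861 and 0.887). The B cell list summed to 2.98 and 3.26 CPM in the sEV tumours and 2.38 and 2.87 CPM in the dinutuximab tumours, and the conventional dendritic cell list to 9.51 and 11.9 CPM in the sEV tumours and 7.87 and 17.0 CPM in the dinutuximab tumours. For 9 endothelial markers the sum was 126 and 118 CPM in the sEV tumours and 149 and 171 CPM in the dinutuximab tumours, and 0 of the 9 had a positive log2 fold change. For 9 fibroblast markers it was 899 and 749 CPM in the sEV tumours and 644 and 637 CPM in the dinutuximab tumours, most of it Dcn and Col3a1, while 3 of the 9 had a positive log2 fold change and the median was -0.44. The part of these cells in the levels of the 42 genes was not tested.

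Interferon-stimulated genes outside the 42 were positive in the main, with no gene called. Their list was chosen with earlier results of these data known, so it is no independent check. Of 60 such genes, 59 passed the filter, 50 of the 59 had a positive log2 fold change (50.3% of all genes), and the median was 0.26 with an SD of 0.40 among genes. No gene of the 59 passed the edgeR test over all genes, 7 had an unadjusted p under 0.05 and were higher (2.47% of all genes), and 0 were lower at that threshold (3.10%). Both sEV tumours lay above both dinutuximab tumours in 28 of the 59 (18.1% of all genes) and below them in 2 (16.5%). Their median absolute log2 difference was 0.168 between the sEV tumours and 0.264 between the dinutuximab tumours. The median log2 fold change was 0.18 without dinutuximab replicate 4 and between 0.21 and 0.32 without each of the other 3 libraries. These medians were not planned in advance. The 4 genes of lowest p were Slfn1, another Schlafen gene (1.81 ± 0.42, SE), Ly6a, which encodes the surface protein Sca-1 (0.78 ± 0.19), Trim34a (1.04 ± 0.34) and Sp100, a nuclear body gene (0.57 ± 0.19), with edgeR adjusted p between 0.507 and 0.745. Cxcl10, a chemokine gene named here after its values were seen, had 3.93 and 11.0 CPM in the sEV tumours and 8.03 and 2.66 CPM in the dinutuximab tumours, the order of tumours seen in Ifit1. In 19 of the 59 genes sEV replicate 4 lay above sEV replicate 3 and dinutuximab replicate 3 above dinutuximab replicate 4 (21.9% of all genes). Dinutuximab replicate 4 was the lowest tumour for 29 of the 59 (26.5% of all genes) and the highest for 7 (27.0%). The highest tumour for 29 of the 59 was sEV replicate 4 (19.2% of all genes). Dinutuximab replicate 3 was the highest tumour for 5 of the 59 (24.9% of all genes) and the lowest for 18 (26.4%).

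Genes that carry the signal from the receptor were split evenly in direction. Of 21 such genes, 11 had a positive log2 fold change (50.3% of all genes), and the median was 0.00571. An unadjusted edgeR p under 0.05 was seen in 0 of the 21. Among all genes 2.47% were higher and 3.10% lower at that threshold. Irf7, the factor that amplifies interferon production and is itself induced by interferon, had 12.1 and 9.36 CPM in the sEV tumours and 10.4 and 3.77 CPM in the dinutuximab tumours (0.59 ± 0.41, SE, edgeR adjusted p = 0.909), and dinutuximab replicate 4 was again lowest. Irf9, another ISGF3 subunit gene, had 15.4 and 17.4 CPM in the sEV tumours and 14.5 and 13.7 CPM in the dinutuximab tumours (0.22 ± 0.17, adjusted p = 0.909). The other genes of lowest p in the list were Ifngr1, a chain of the type II interferon receptor (0.20 ± 0.14), Irf5 (0.22 ± 0.15) and Socs3, a feedback inhibitor (-0.18 ± 0.13), with adjusted p of 0.909 for all 3. Of 29 further genes of nucleic acid sensing, 28 passed the filter. Of the 28, 19 were positive (50.3% of all genes), with a median of 0.11. At an unadjusted edgeR p under 0.05, 0 were higher (2.47% of all genes) and 0 lower (3.10%). Among those of lowest p were the DNA sensor gene Aim2 (0.37 ± 0.18), Zc3hav1, which encodes an antiviral zinc finger protein (-0.25 ± 0.13), and the DNA receptor gene Tlr9 (-0.995 ± 0.54), with edgeR adjusted p between 0.887 and 0.888.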

How the data were processed

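The deposited files hold raw counts for each Ensembl gene, in 1 table of the series and 1 table per sample, with all 173728 values equal between them. STAR, SAMtools and HTSeq on mm10 are named per the submitters' processing notes; versions, annotation release and strand setting are not given in the sources used here. Libraries came from flash frozen tissue with a stranded mRNA kit and were run on 2 lanes, per the labels' protocols. Every line of the count table names a gene, and M21 named 42548 IDs and left 884 unnamed.

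Group differences in these counts were fitted with edgeR 4.0.16 under R 4.3.3 (filterByExpr, TMM, quasi-likelihood F test with the group as only term, Benjamini-Hochberg over 13823 genes, threshold 0.05). The common biological coefficient of variation was 0.150. Tumours of a group are biological replicates per the series design. A two-sided exact permutation test of 2 tumours against 2 cannot go below p = 0.333 and was not run. The fit was tested on simulated data. Log2 fold changes are sEV over dinutuximab. Their SE was derived from the test, as the absolute log2 fold change divided by the square root of the F statistic. Alternatives were DESeq2 1.42.0, limma-voom (limma 3.58.1), 2 scalings, 2 filters, robust dispersions, a threshold of 0.1, the tumour number as a block, and leaving out each library. A library left alone in its group was taken to vary as those of the other group do. Shared sequence was counted as 50-base words of M21 transcripts. The genes, lists and naming rule were chosen with earlier results of these data known. All 42 genes may be named; SE and p are given for the 8 of lowest p, the sensors, the receptor genes, Isg15, Stat2 and Usp18, and other lists name up to 4 genes of lowest p plus Irf7 and Irf9. Some genes that the rule names are not reported here.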

Additional observations from a re-analysis of the deposited data

How the results depend on the processing

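The number of genes called over all genes was 0 with edgeR, limma-voom, both other scalings, robust dispersions, the filter of 1 CPM and an adjusted p threshold of 0.1. It was 55 with DESeq2 (0.398%) and 262 of 22003 genes (1.19%) with no low-count filter. In the edgeR fit without that filter 1 of the 42 genes was called (Mx1, log2 fold change 0.86, adjusted p = 0.0485). No other alternative, including each library left out, called any of the 42. Without 1 library, between 0 and 316 genes were called: 132 without sEV replicate 3, 316 without sEV replicate 4 and 0 without either dinutuximab library. The 42 genes had between 2 and 9 members at an unadjusted p under 0.05, a median log2 fold change between -0.022 and 0.52, and between 21 and 39 positive members. With the tumour number as a replicate block, 67 genes were called over all genes, 0 of them among the 42. The differences between replicates 3 and 4 of both groups correlated at 0.0659 over genes, and the labels do not say what the numbers mean, so whether they pair the tumours was not settled.

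Signs near 0 turned for Oas2 with limma-voom (0.025), total-count scaling (0.0059) and the replicate block (0.0030), for Ifi44 with limma-voom (0.090) and the block (0.018), and for Ifnar1 with total-count scaling (0.022); the cause was not tested. Leaving out 1 library turned the sign of 6 genes (sEV replicate 3), 9 (sEV replicate 4), 6 (dinutuximab replicate 3) and 16 (dinutuximab replicate 4). The log2 fold changes of genes that turned ranged as follows: Isg15 -0.56 to 1.26, Isg20 -0.31 to 0.77, Ifit1 -0.64 to 1.83, Ifit2 -0.12 to 0.45, Ifit3 -0.46 to 1.85, Ifit3b -0.45 to 2.19, Mx2 -0.26 to 0.37, Oas2 -0.52 to 0.69, Oasl1 -0.23 to 0.61, Oasl2 -0.064 to 0.95, Rsad2 -0.48 to 1.25, Usp18 -0.59 to 1.70, Ifi44 -1.07 to 1.37, Ifi27 -0.19 to 0.27, Ddx58 -0.43 to 0.27, Cmpk2 -0.15 to 0.59, Bst2 -0.26 to 0.019, Rtp4 -0.43 to 0.98, Xaf1 -0.059 to 1.15, Herc6 -0.32 to 0.17, Parp14 -0.26 to 0.45, Dtx3l -0.24 to 0.094, Slfn5 -0.81 to 0.33, Tmem173 -0.28 to 0.051, Mb21d1 -0.052 to 0.66, Ifnar1 -0.058 to 0.030. The 42 genes had between 5 and 6644 counts in a library, and those of fewest counts (Mx2, Oas1g, Ifit3b, Ifi44) are limited most by counting error.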
